A study of Mus musculus with 6 samples.

Results

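Hepatocytes are joined to their neighbours by gap junctions, tight junctions and adherens junctions. The transcripts described here encode membrane proteins of these contacts: the connexins Gjb1 and Gjb2, the claudins Cldn1, Cldn2, Cldn3, Cldn12 and Cldn14, occludin (Ocln) and the cadherins Cdh1 and Cdh2. These 10 genes were taken by name from the 54532 genes of the deposited expression table, each name was found once, and all 10 passed the filter of a mean of at least 0.5 FPKM (fragments per kilobase, made comparable between libraries by the authors' scaling) that left 12022 genes for testing. Whole-liver messenger RNA came from 3 untreated control mice with floxed Notch1 alleles (Notch1fl/fl) and from 3 untreated mice in which Notch1 was knocked out in hepatocytes, in a study that asked about Notch1 and the liver's production of thrombopoietin. The labels leave out strain, sex, age, the Cre driver and any pooling of animals. The libraries held 15612924 to 17511961 reads in genes.

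Notch1 itself (chromosome 2, 26457903 to 26516663) measured 0.618, 0.965 and 0.854 FPKM in controls 1 to 3 and 0.301, 0.540 and 0.292 FPKM in knockouts 1 to 3. Every knockout library lay below every control library, and the difference did not pass the threshold over all genes (limma adjusted p = 0.257). The gene-level value adds up all exons and all cell types of the liver.

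Gap junctions are clusters of channels made of connexins, which let ions, second messengers such as inositol trisphosphate and small metabolites pass from cell to cell, and in liver they carry calcium waves along the hepatocyte plate. Tight junctions seal the bile canaliculus against blood: claudins form the strands and set which ions cross, and occludin is a further strand protein. Adherens junctions rest on cadherins, which bind a cadherin of the same kind on the neighbouring cell and hold the actin cytoskeleton through catenins. Hepatocytes make both E-cadherin (Cdh1), enriched around the portal vein, and N-cadherin (Cdh2), found across the lobule.

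The label of these genes as hepatocyte genes could be checked only at the level of the tissue. Hepatocyte markers dominated each library, and 6 of the 8 had lower means in the knockouts. On the authors' scaling their sums were 59106 to 67559 FPKM in controls and 43222 to 55518 FPKM in knockouts, without overlap. Albumin (Alb) measured 29979 to 37515 FPKM in controls and 20452 to 29087 FPKM in knockouts. With scaling to total reads these separations did not remain, and the groups overlapped for the sum and for Alb. None of the 8 passed the threshold or had an unadjusted p under 0.05 by limma. Bulk RNA cannot assign a junction transcript to a cell type, and fewer cells of a type and less RNA per cell cannot be told apart. Several junction genes are also made by bile duct, mesothelial or endothelial cells, so the markers of those cells were measured beside them. Of 11 bile duct markers, 5 were tested and all 5 had higher means in the knockouts, with summed levels of 16.0 to 19.3 FPKM in controls and 26.5 to 36.3 FPKM in knockouts, while the bile duct marker Cldn4 was at 0 in all 6 libraries. Of 8 mesothelial markers, 7 were tested and all 7 had higher means, with sums of 5.12, 12.6 and 51.5 FPKM in controls 1 to 3 and 86.1, 147 and 115 FPKM in knockouts 1 to 3, and no marker of that list was at 0 in every library. Of 9 endothelial markers, 7 had lower means, with sums of 60.9 to 80.4 FPKM in controls and 65.6 to 75.9 FPKM in knockouts. Of these 3 lists 0 markers passed the threshold by limma. An unadjusted p under 0.05 was reached by 3 bile duct, 7 mesothelial and 1 endothelial marker, against 13.9% of all tested genes. The part of these cells in the values below was not tested.

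None of the 10 junction genes passed the threshold in the knockout against control comparison (limma on log2(FPKM + 1), Benjamini-Hochberg adjusted p of 0.05 over all 12022 genes), where 0.025% of tested genes did. The lowest adjusted p among them was 0.279, for Cdh2. Of the 10, 2 had an unadjusted p under 0.05, against 13.9% of tested genes: Cdh2 with a lower mean (7.06% of tested genes) and Cldn14 with a higher mean (6.83%), and limma voom on recovered reads also gave 0 passing and 2 at the unadjusted level. The 2 groups did not overlap for 4 of the 10 genes, against 19.8% of all tested genes: every knockout was lower for Gjb1, Cldn2 and Cdh2 (10.6% of tested genes) and higher for Cldn14 (9.2%). Means were higher in the knockouts for 3 genes and lower for 7, and the median log2 change was -0.16, beside -0.0081 over all tested genes. Scaling by total reads shifted the median of all genes by 0.10 and gave 5 genes higher and 5 lower. Relative to that median, 7 of the 10 again lay below and 3 above, but the groups then overlapped for Cldn2.

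**Figure D1:**
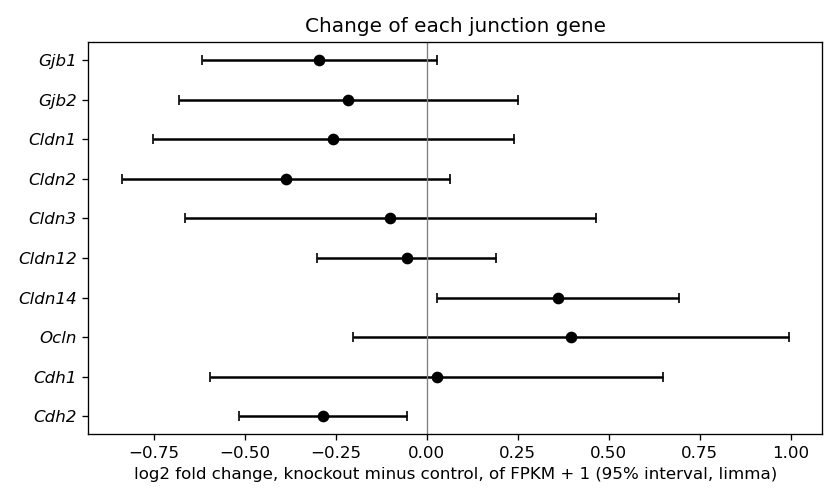
Log2 fold change of each junction gene, knockout minus control, on the log2(FPKM + 1) scale (x axis), with the 95% interval from limma over 3 against 3 livers. The intervals of Cdh2 (-0.52 to -0.05) and Cldn14 (0.03 to 0.69) lie to the sides of 0, and those of the other 8 genes include 0.

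As levels per length of gene, the 10 transcripts ranged from 333 FPKM for Gjb1 to 4.39 FPKM for Cldn14, averaged over the 6 livers. Gjb1 stood clear of Gjb2, the next in order at 62.7 FPKM, and its level exceeded that of 98.5% of tested genes. Cldn3 followed at 36.8 FPKM, with a range over livers that overlapped that of Gjb2 and stood clear of Cldn1 at 19.9 FPKM. From Cldn1 down, each gene overlapped the next in its range over livers: Cldn2 at 18.0, Cldn12 at 13.3, Cdh1 at 11.1, Cdh2 at 6.57, Ocln at 4.64 and Cldn14 at 4.39 FPKM. These ranges alone therefore do not resolve the order of the neighbours. Within each of the 6 livers, however, Cdh1 exceeded Cdh2 (ratio 1.20 to 2.73). Cldn14 rested on the fewest reads, 98 to 202 per library, and Gjb1 on the most, 7766 to 10096.

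**Figure D2:**
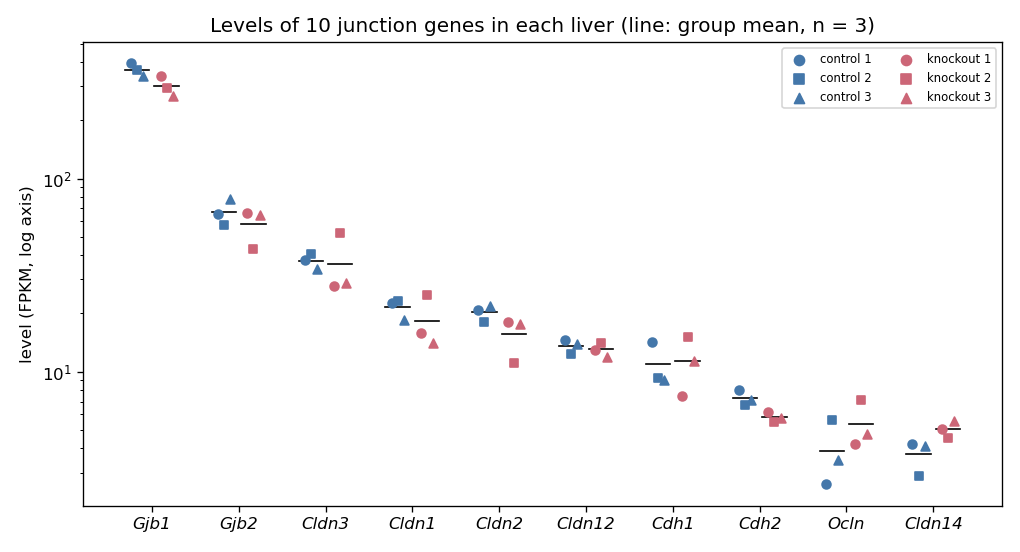
Level in FPKM (log axis) of each of the 10 junction genes in 3 control livers (blue) and 3 knockout livers (red), ordered by mean level, with a line at each group mean and a symbol for each replicate number. Gjb1 is highest at a mean of 333 FPKM, and knockout 2 (red square) is the highest point for Cldn3, Cldn1, Cdh1 and Ocln and the lowest for Gjb2, Cldn2 and Cdh2.

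Among the connexins, Gjb1, the main hepatocyte connexin (ENSMUSG00000047797, chromosome X, 101376378 to 101385629, GRCm38), measured 394, 365 and 341 FPKM in controls 1 to 3 and 339, 293 and 266 FPKM in knockouts 1 to 3. All 3 knockouts lay below all 3 controls, but knockout 1 and control 3 were only 1.11 FPKM apart. The means were 367 ± 26.8 and 300 ± 37.1 FPKM (SD, n = 3), 18.3% lower in the knockouts (log2 fold change -0.29 with a 95% interval of -0.62 to 0.03, limma adjusted p = 0.397). Gjb2, a connexin enriched in periportal hepatocytes that can share channels with Gjb1 (ENSMUSG00000046352, chromosome 14, 57098600 to 57104702), measured 65.8, 57.3 and 78.2 FPKM in controls and 66.4, 43.3 and 65.0 FPKM in knockouts. Only knockout 2 lay below the control range, and the groups overlapped (log2 fold change -0.22, 95% interval -0.68 to 0.25, adjusted p = 0.678). The log2 fold change of Gjb2 was -0.018 without knockout 2 and -0.10 without control 3. The summed level of both connexins was 419 to 460 FPKM in controls and 331 to 406 FPKM in knockouts, so the sums did not overlap. Gjb2 made up 13.6% to 18.7% of that sum in controls and 12.9% to 19.6% in knockouts, a proportion with no separation between the groups.

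No claudin passed the threshold, and Cldn3 and Cldn1 spread widely among the knockouts. Cldn3, a barrier-forming claudin (ENSMUSG00000070473, chromosome 5, 134986214 to 134987472), measured 37.6, 40.7 and 33.8 FPKM in controls and 27.9, 52.2 and 28.7 FPKM in knockouts. Knockouts 1 and 3 lay below every control and knockout 2 above every control, and the means were nearly level (37.4 ± 3.44 and 36.3 ± 13.8 FPKM, adjusted p = 0.893). Cldn1, a barrier-forming claudin that also serves hepatitis C virus entry in human hepatocytes (ENSMUSG00000022512, chromosome 16, 26356642 to 26371841), measured 22.7, 23.3 and 18.5 FPKM in controls and 15.9, 24.9 and 14.1 FPKM in knockouts. The same split appeared: knockouts 1 and 3 were below the control range and knockout 2 was above it (log2 fold change -0.26, 95% interval -0.75 to 0.24, adjusted p = 0.632). Without knockout 2 the log2 fold change was -0.49 for Cldn1 (adjusted p = 0.250) and -0.39 for Cldn3 (adjusted p = 0.264), larger than with all livers and still short of the threshold. Leaving out knockout 1 or 3 instead gave -0.18 and -0.10 for Cldn1, and 0.054 and 0.033 for Cldn3. A 40-base stretch of Cldn3 exon sequence is shared with Wbscr25 on the other strand, and whether counting used strand is not stated.

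Cldn2 went the other way in the same liver. This claudin forms channels for cations and water and is graded towards the central vein in rodent liver (ENSMUSG00000047230, chromosome X, 139800828 to 139811386). It measured 20.8, 18.2 and 22.0 FPKM in controls and 18.1, 11.1 and 17.7 FPKM in knockouts. The groups did not overlap, by 0.0187 FPKM between control 2 and knockout 1, and knockout 2 was far below the rest. The means were 20.3 ± 1.96 and 15.6 ± 3.96 FPKM (log2 fold change -0.39, 95% interval -0.84 to 0.07, adjusted p = 0.422). Without knockout 2 the log2 fold change was -0.17.

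Of the 10 genes, 8 were matched by symbol to RefSeq promoters of build GRCm38.p6, and 4 of them have a single start there: Cldn1 and Cldn3, which were highest in knockout 2, and Gjb2 and Cldn2, which were lowest in it. The 250 bases before each start are printed. The high and low pairs rest on knockout 2 alone, which has no replicate, so these windows cannot tie a motif to a level. Each was searched on both strands for TGGGAA, the core bound by the Notch partner RBPJ, for CACCTG, the E-box bound by Snail repressors of junction genes, and for TTCNNNGAA, the element bound by STAT factors, and matches are in capitals.
Cldn3, chr5:134985964-134986213, plus strand: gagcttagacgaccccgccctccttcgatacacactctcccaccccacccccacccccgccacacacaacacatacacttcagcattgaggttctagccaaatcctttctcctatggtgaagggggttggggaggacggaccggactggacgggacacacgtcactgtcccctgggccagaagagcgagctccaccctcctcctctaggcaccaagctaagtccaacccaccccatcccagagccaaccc
Cldn1, chr16:26371840-26372089, minus strand: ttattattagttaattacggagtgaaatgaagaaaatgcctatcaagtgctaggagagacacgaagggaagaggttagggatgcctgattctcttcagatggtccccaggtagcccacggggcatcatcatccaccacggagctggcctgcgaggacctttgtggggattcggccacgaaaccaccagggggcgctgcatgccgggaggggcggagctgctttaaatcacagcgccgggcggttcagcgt
Gjb2, chr14:57104703-57104952, minus strand: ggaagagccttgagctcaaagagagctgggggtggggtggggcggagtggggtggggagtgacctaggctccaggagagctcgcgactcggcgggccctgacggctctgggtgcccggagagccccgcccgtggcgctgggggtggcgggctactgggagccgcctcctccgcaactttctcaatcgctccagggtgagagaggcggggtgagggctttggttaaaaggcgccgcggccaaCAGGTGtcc
Cldn2, chrX:139800558-139800807, plus strand: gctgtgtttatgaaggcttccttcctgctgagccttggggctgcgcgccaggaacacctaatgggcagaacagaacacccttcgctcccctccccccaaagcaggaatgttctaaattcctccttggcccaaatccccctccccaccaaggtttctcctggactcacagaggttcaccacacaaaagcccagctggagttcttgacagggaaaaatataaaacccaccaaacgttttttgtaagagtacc
The single match in these windows is CAGGTG, the E-box read on the other strand, which begins 9 bases before the Gjb2 start. Over all 32817 promoter windows of the same length, TGGGAA was present in 21.6%, CACCTG in 17.2% and TTCNNNGAA in 7.01%. The windows had GC contents of 60.8% for Cldn3, 55.6% for Cldn1, 69.2% for Gjb2 and 52% for Cldn2, where the median window had 52.4%. Among the starts of the other matched genes, TGGGAA lay before Cldn14 starts, CACCTG before starts of Ocln, Cldn14 and Gjb1, and TTCNNNGAA before starts of Cldn12 and Cldn14, where it overlapped a TGGGAA match read on the other strand.

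Cldn12, a claudin without the PDZ-binding tail of most claudins (ENSMUSG00000046798, chromosome 5, 5489537 to 5514958), varied little. It measured 14.5, 12.3 and 13.9 FPKM in controls and 13.0, 14.1 and 12.0 FPKM in knockouts. The ranges overlapped widely, and the 95% interval of its log2 fold change ran from -0.30 to 0.19 (adjusted p = 0.859).

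Of the 5 claudins, Cldn14 had higher values in every knockout. It is a cation barrier-forming claudin known from hearing and kidney (ENSMUSG00000047109, chromosome 16, 93919031 to 94008837). It measured 4.23, 2.87 and 4.10 FPKM in controls and 5.02, 4.54 and 5.55 FPKM in knockouts. Each knockout lay above each control, the highest control being 0.319 FPKM below the lowest knockout. The means were 3.73 ± 0.747 and 5.04 ± 0.503 FPKM, 35.0% higher in the knockouts (log2 fold change 0.36, 95% interval 0.03 to 0.69; limma unadjusted p = 0.0368, adjusted p = 0.327, and 0.209 to 0.556 over the alternatives). Without control 2, the lowest library, the log2 fold change was 0.22 (limma unadjusted p = 0.0998), and the unadjusted p was 0.0770 without knockout 1 and 0.112 without knockout 3.

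**Figure D3:**
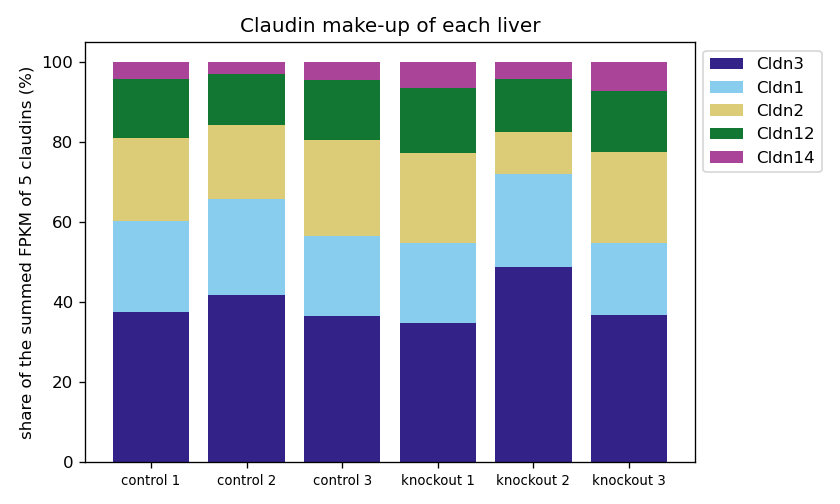
Share (%) of each of 5 claudins in their summed FPKM, 1 bar per liver. In knockout 2 Cldn3 makes up 48.9% and Cldn2 10.4%, where the other 5 livers have 34.9% to 41.8% and 18.6% to 23.8%.

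The make-up of the claudin pool followed from these values. Summed over the 5 claudins, the livers held 92.2 to 99.97 FPKM in controls and 79.9, 107 and 78.0 FPKM in knockouts 1 to 3. Cldn3 made up the largest share in each of the 6 livers. Cldn2 took 10.4% in knockout 2, against 22.7% and 22.6% in knockouts 1 and 3 and 18.6% to 23.8% in controls. The ratio of Cldn3 to Cldn2, in FPKM, was 4.72 in knockout 2 and between 1.54 and 2.24 in the other 5 livers. Cldn14 took 2.95% to 4.44% in controls and 4.26% to 7.12% in knockouts.

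Occludin had the same order of libraries by replicate number in both groups. The labels do not tie same-numbered libraries together, and the share of tested genes with a matching order was not counted. Ocln (ENSMUSG00000021638, chromosome 13, 100496507 to 100552718) measured 2.60, 5.60 and 3.51 FPKM in controls and 4.24, 7.10 and 4.75 FPKM in knockouts. Library 2 was the highest and library 1 the lowest in both groups, the groups overlapped, and within each same-numbered pair the knockout was higher, as in 18.9% of tested genes. Means were 3.91 ± 1.54 and 5.37 ± 1.52 FPKM (log2 fold change 0.40, SE 0.25, adjusted p = 0.539). The log2 fold change was 0.20 without control 1, 0.21 without knockout 2 and 0.63 without control 2. Blocking on replicate number, the SE was 0.096 and the adjusted p 0.174. The block raised the number of junction genes at an unadjusted p under 0.05 from 2 to 5 (Gjb1, Cldn2, Cldn14, Ocln and Cdh2), where 16.1% of all tested genes reached that level, and 0 of the 10 passed over all genes.

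The cadherins differed in their spread within groups, and a difference between their changes was not tested. Cdh2, N-cadherin (ENSMUSG00000024304, chromosome 18, 16588877 to 16809246), measured 8.08, 6.74 and 7.15 FPKM in controls and 6.20, 5.52 and 5.75 FPKM in knockouts. All 3 knockouts lay below all 3 controls, 0.541 FPKM apart at the nearest, and the spread within each group was small. The means were 7.32 ± 0.687 and 5.82 ± 0.348 FPKM, 20.5% lower in the knockouts (log2 fold change -0.28, 95% interval -0.52 to -0.05, limma unadjusted p = 0.0225, adjusted p = 0.279, and 0.218 to 0.561 over the alternatives). Cdh2 was lower in each same-numbered pair, like Gjb1 and Cldn2 and like 21.2% of tested genes. Ranked by p it was number 967 of the 12022 tested genes. With scaling to total reads the log2 fold change of Cdh2 was -0.16 (limma unadjusted p = 0.146). Its unadjusted p was 0.0791 without control 1, 0.0613 without knockout 2 and 0.0578 without knockout 3, and stayed under 0.05 in the other alternatives.

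Cdh1, E-cadherin (ENSMUSG00000000303, chromosome 8, 106603351 to 106670246), measured 14.3, 9.31 and 9.08 FPKM in controls and 7.46, 15.0 and 11.4 FPKM in knockouts. Control 1 and knockout 2 were high, knockout 1 was the lowest, and the groups overlapped throughout. The means were 10.9 ± 2.96 and 11.3 ± 3.79 FPKM (log2 fold change 0.03, 95% interval -0.60 to 0.65, adjusted p = 0.975), and the sign turned under 5 of the 17 alternatives. The interval spans a wide range, so a change of moderate size in Cdh1 was not detectable with 3 livers a group. The ratio of Cdh1 to Cdh2, in FPKM, was 1.77, 1.38 and 1.27 in controls and 1.20, 2.73 and 1.99 in knockouts, with overlap between the groups.

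The 3 genes whose centred log2 values over the 6 libraries lay nearest to those of Cdh2, among 10074 other genes averaging 1 FPKM or more, were Siah1a, Ttc17 and Slmap. Their root mean square differences from Cdh2 were 0.021, 0.025 and 0.030 on the log2(FPKM + 1) scale.

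**Figure D4:**
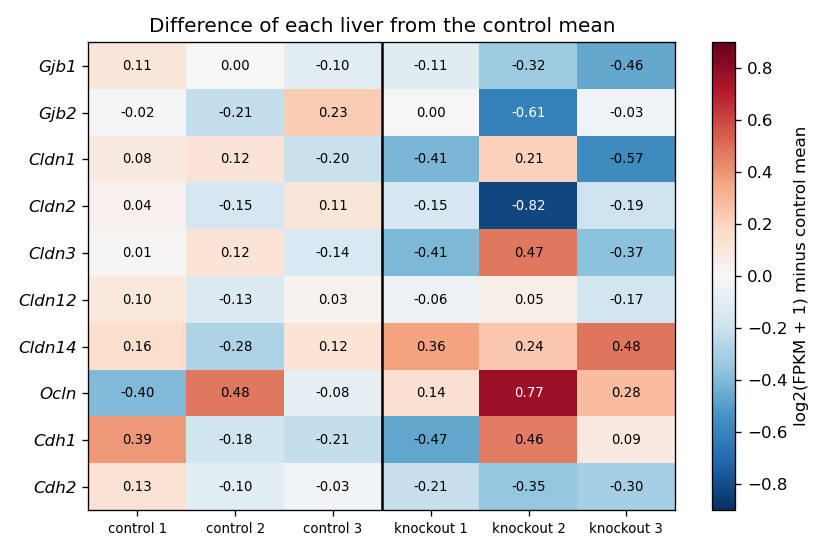
Difference of each liver from the control mean, in log2(FPKM + 1), for the 10 junction genes (rows) in controls 1 to 3 and knockouts 1 to 3 (columns), red for higher and blue for lower. Knockout 2 reads 0.77 for Ocln, 0.47 for Cldn3 and 0.46 for Cdh1, and -0.82 for Cldn2 and -0.61 for Gjb2.

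Knockout 2 thus held the highest or lowest value of the 6 livers for 7 of the 10 genes. It did so for 46.8% of all tested genes, more than any other liver (26.7% to 37.3%), and limma's array weights gave it the lowest weight (0.551, against 0.932 to 1.46). It was the highest for Cldn1, Cldn3, Ocln and Cdh1 and the lowest for Gjb2, Cldn2 and Cdh2. Against the mean of knockouts 1 and 3, Cldn3 was 1.84 times, Cldn1 1.66 times, Cdh1 1.59 times and Ocln 1.58 times as high in knockout 2, and Cldn2 was 1.62 times and Gjb2 1.52 times as high in the other knockouts. Genes of hepatocytes around the central vein, measured beside these, had their lowest sum in knockout 2, but all 3 knockouts lay below every control. Their summed level was 1394 FPKM in knockout 2, 2654 and 2049 FPKM in knockouts 1 and 3 and 3013 to 3548 FPKM in controls. Genes of hepatocytes around the portal vein summed to 3611 FPKM in knockout 2, 2931 and 2940 FPKM in knockouts 1 and 3 and 3064 to 3333 FPKM in controls. Of the 9 central genes tested, 8 had lower means in the knockouts (median log2 change -0.46). Of the 10 portal genes tested, 7 had higher means (median 0.07). By limma 0 of either list passed the threshold, and 2 of each had an unadjusted p under 0.05 (13.9% of all tested genes). Both of these central genes were lower in the knockouts (7.06% of tested genes). Of these portal genes 1 was lower and 1 was higher (6.83% of tested genes). The higher one was Sox9, which is also on the bile duct list. Knockout 2 also had the highest sum of mesothelial markers. The part of zonation or of other cell types in the junction values was not tested, and a single liver has no replicate.

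The wider junction machinery was represented by 109 further genes on 7 lists, of which 56 were tested. Of these, 29 had higher and 27 lower means, 0 passed over all genes by limma, 12 (8 higher and 4 lower) had an unadjusted p under 0.05 (limma voom on recovered reads gave 0 and 13), where 13.9% of all tested genes did (6.83% higher and 7.06% lower), and the median log2 change was 0.0090, beside -0.0081 over all tested genes. The lists were counted and given no set test, and the counts at that level given for each list below stand against the same shares.

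Tight junction partners include the scaffold and polarity proteins that anchor claudins. Of 19 tested, 13 had higher and 6 lower means, 0 passed, 3 had an unadjusted p under 0.05, and the median log2 change was 0.07. Lsr, a tricellular junction protein, measured 30.8, 24.8 and 29.5 FPKM in controls and 39.3, 37.5 and 38.4 FPKM in knockouts, with no overlap (adjusted p = 0.181). The polarity genes Pard6b and Crb3 had knockout means 1.63 and 1.34 times those of controls, without overlap (adjusted p = 0.183 and 0.251). Over the whole list, the groups did not overlap for 4 of the 19 genes, all higher in the knockouts, as for 9.2% of tested genes.

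Of 20 other claudins only Cldn15 and Cldn5 were tested. Cldn15, a pore-forming claudin of intestine, measured 0.628, 0.705 and 4.45 FPKM in controls and 6.93, 9.60 and 7.63 FPKM in knockouts. Control 3 stood between the other controls and the knockouts, as it did for the summed mesothelial markers. The log2 fold change of Cldn15 was 1.86 (SE 0.45, adjusted p = 0.168), and without control 3 it was 2.43 and passed the threshold (adjusted p = 0.0187). Cldn5, the endothelial claudin, overlapped between groups (adjusted p = 0.956).

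Among the other connexins and pannexins, 3 of 21 were tested, 0 passed and 1 had an unadjusted p under 0.05. Gja1, the connexin of many non-hepatocyte cells, measured 0.357, 0.390 and 0.798 FPKM in controls and 0.906, 1.26 and 1.33 FPKM in knockouts (adjusted p = 0.217). Gja1 thus stood far below Gjb1 in every liver, and control 3 was again its highest control. Gja4, an endothelial connexin, overlapped between groups (adjusted p = 0.431).

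Other cadherins gave 3 tested of 11, of which 0 passed and 2 had an unadjusted p under 0.05. Cdh5, the endothelial cadherin, measured 6.31, 6.16 and 5.54 FPKM in controls and 4.36, 4.87 and 4.44 FPKM in knockouts, without overlap (log2 fold change -0.33, adjusted p = 0.202). Cdh3, P-cadherin, measured 0.167, 0.114 and 0.947 FPKM in controls and 1.11, 1.95 and 1.33 FPKM in knockouts (adjusted p = 0.217). Control 3 was again the highest control, as for Cldn15 and Gja1. Cdhr5, a protocadherin-like protein of microvilli, overlapped (adjusted p = 0.623).

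Of 11 adherens junction partners tested, 6 had higher and 5 lower means, and of 7 desmosome genes 3 and 4. None of either list passed, and 2 and 1 had an unadjusted p under 0.05. Jup, plakoglobin, which serves both kinds of contact, measured 4.16, 3.87 and 4.59 FPKM in controls and 5.34, 5.90 and 5.93 FPKM in knockouts, without overlap (adjusted p = 0.182). Ctnnal1, a catenin-like protein, had a knockout mean 1.91 times the control mean (adjusted p = 0.234). Lima1, an actin-binding protein, and the desmosome proteins Dsp and Dsg2 had adjusted p of 0.410, 0.404 and 0.476.

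Among 12 tested regulators, which include transcription factors that repress or maintain epithelial junction genes, 4 had higher and 8 lower means, 0 passed and 3 had an unadjusted p under 0.05 (13.9% of all tested genes). The groups did not overlap for 3 of the 12, all lower in the knockouts, as for 10.6% of tested genes. The 3 with the smallest p were the hepatocyte factors Foxa1, Foxa2 and Cebpa, with means 2.32, 2.08 and 1.52 times as high in controls (adjusted p = 0.103, 0.118 and 0.166).

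**Figure D5:**
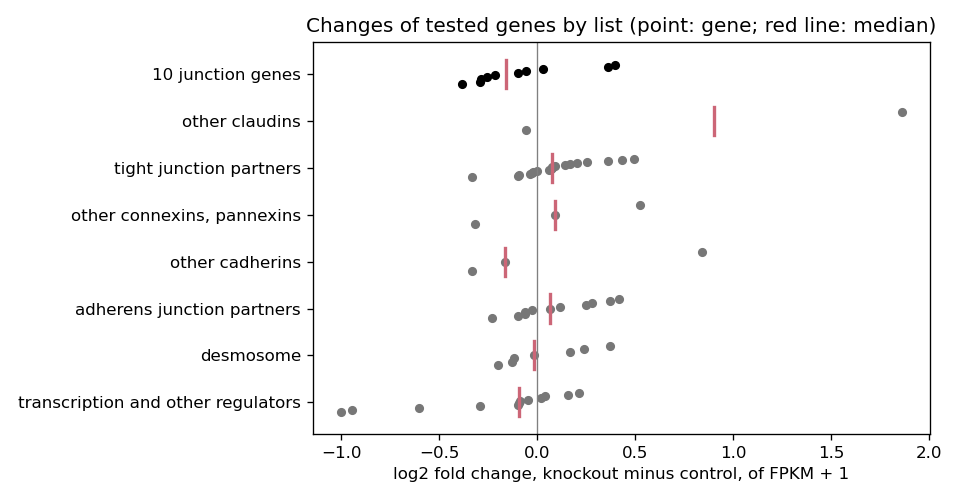
Log2 fold change, knockout minus control, on the log2(FPKM + 1) scale (x axis) of each tested gene (point) of the 10 junction genes and of 7 further junction lists, with the median of each list in red. The 10 junction genes lie between -0.39 and 0.40, and Cldn15, at 1.86, is the point farthest to the right.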

How the data were processed

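Whole-liver RNA of 3 control and 3 knockout mice was sequenced after poly-T selection and library preparation with a NEBNext Ultra kit, per the labels' protocols. Per the submitters' processing notes, the tools were featureCounts 1.5.0-p3 and HISAT2 2.0.5, on GRCm38; settings are not given. The authors deposited FPKM per gene and library. Knockout columns carry their group's name; the NC columns were taken as controls by elimination (0 columns left over), and each control value rests on this. FPKM times gene length gave whole reads, within 0.1 read, for 100% of values above 0, and the libraries had been scaled by median ratios (factors 0.911 to 1.22). The precision of low genes is limited by depth: 3 reads in 1 kilobase correspond to 0.150 to 0.201 FPKM.

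The 12022 genes averaging 0.5 FPKM or more were tested with limma 3.58.1 in R 4.3.3 on log2(FPKM + 1) (lmFit, eBayes with trend), two-sided, Benjamini-Hochberg threshold 0.05; the pseudocount of 1 understates changes of low genes. Errors are SD over n = 3 unless marked. The members and lists were chosen with earlier results of these data known. Named genes were the members, Notch1 and the 3 genes of each junction list with the smallest p. The 3 genes nearest to the member with the smallest p were also named. Marker and zone genes are given as sums. Alb, Krt19, Spp1, Sox9, Cldn4 and Wbscr25 were named after their values were seen. Some items are not reported here. Deviations from group means correlated at 0.31, 0.16 and 0.10 for same-numbered libraries and at -0.25 to 0.11 for others. The labels state no shared litter or batch, so the block is an alternative, printed where it moves a count. In all 17 alternatives were run.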

Additional observations from a re-analysis of the deposited data

How the results depend on the processing

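No junction gene passed the threshold with all livers and the settings as reported, or in any of the 17 alternatives. The number at an unadjusted p under 0.05 was 2, and it was 5 with the replicate block, 1 with scaling to total reads and 0 to 3 when single libraries were left out (1 without control 1, 0 without knockout 3). The number whose groups did not overlap was 4, and it was 4 with quantile normalization, 3 with scaling to total reads and 4 to 6 with single libraries left out, which makes overlap less likely; the other alternatives do not bear on it. Over all tested genes 3 passed, with 0 under no filter on low values, 1 with a pseudocount of 0.1, 0 with the replicate block, 15 with voom on recovered reads and 0 to 58 when single libraries were left out (1 without control 1, 0 without control 2, 58 without control 3, 0 without knockout 1 and 29 without knockout 2). Of the further junction genes 0 passed, and 0 to 1 with single libraries left out (Cldn15 without control 3). The sign of the log2 fold change turned for 3 members: Cldn3 (0.040 with scaling to total reads, -0.39 to 0.054 with libraries left out), Cldn12 (0.078 with scaling to total reads) and Cdh1 (-0.0070 with array weights, -0.19 to 0.27 with libraries left out). The cause was not tested. The other 7 members kept their sign in all 17. The replicate block ended or made no call among the junction genes.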
